A study of Mus musculus with 12 samples.

Results

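Most of the genes described here encode the ion channels that set the electrical behaviour of a cell. They are potassium channel subunits (symbols beginning with Kcn), the alpha and beta subunits of sodium channels (Scn) and the subunits of calcium channels (Cacna, Cacnb and Cacng). All were chosen by symbol alone, with 3 further symbols left out. The rule also took in Kcnq1ot1, a non-coding RNA that encodes no channel and is counted here among the channel genes. The array carried 128 such genes of 19751 named genes, and 96 of them had a probe well above background on at least 3 of 12 arrays, among 15369 genes tested. Where a gene had several probes, the brightest on average was used. The rule used no difference between treatments.

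Cells came from CD-1 embryos and from the medial telencephalon, which gives rise to the hippocampus and the cortical hem. Constructs were introduced at E11.5 (embryonic day) by electroporation together with a vector for nuclear EGFP, and green cells were sorted 24 hours later, at E12.5. The groups received control siRNAs, the first or the second siRNA set against both Dmrt3 and Dmrta2, or an expression plasmid for Dmrta2, with 3 replicates each on 1 array apiece. Dmrt3 and Dmrta2 encode transcription factors with a DM domain that act in the patterning of the dorsal telencephalon. No array of a plasmid without Dmrta2 was analysed, so the plasmid group also had control siRNAs as its reference. The labels do not say how many embryos a replicate holds, and p-values measure the spread between these arrays.

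Voltage-gated channels open when the membrane is depolarised: sodium channels carry the upstroke of the action potential, potassium channels bring the membrane back to rest, and calcium channels let in calcium that triggers transmitter release and gene expression. Other potassium channels do not need depolarisation: the leak channels with a pair of pore domains and the inward rectifiers hold the resting potential, and calcium-activated channels follow intracellular calcium. In the embryonic telencephalon, dividing progenitors have mostly leak and inwardly rectifying currents, and voltage-gated currents grow as neurons differentiate.

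Levels are log2 spot intensities relative to the 75th percentile of the array, which lies at 0. Over the arrays that percentile ran from 572 to 1142 in raw signal, the share of spots well above background from 67.1% to 72.2%, and arrays of the same group correlated across genes at 0.979 to 0.994. The 3 slides held 1 array of each group, always at the same position, so position and group cannot be told apart. The siRNA arrays stood at 53.4% of control for Dmrt3 and at 72.6% for Dmrta2, but limma's adjusted p was 0.162 and 0.204. On the plasmid arrays the Dmrta2 probe stood at 70.8% of control (adjusted p = 0.574), and its position relative to the plasmid's insert is not known, so it may not report the plasmid. In bulk samples, fewer cells of a type and less RNA per cell cannot be told apart.

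Few channel genes passed the test, and most calls lay between the Dmrta2 plasmid and the siRNAs rather than between either and the controls. In the plasmid arrays against both siRNA sets averaged, 4 of 96 channel genes passed (limma over all genes, Benjamini-Hochberg adjusted p under 0.05), where 2.15% of all genes did. The sodium channel subunit gene Scn4b, the calcium-activated potassium channel gene Kcnn4 and the fast delayed rectifier gene Kcnc1 were higher under the plasmid, and the leak channel gene Kcnk10 was lower. Against control siRNAs, Kcnk10 rose under the siRNA sets averaged, as the single call among 96 channel genes (0.67% of all genes), and under set 2 alone, again as the single call (1.02% of all genes). No channel gene passed under set 1 (0.234% of all genes) or under the plasmid (0.273% of all genes) against control siRNAs. At an unadjusted p under 0.05, set 1 held 13 channel genes, or 13.5%, where 10% of all genes did, and the plasmid 9, or 9.38%, where 4.44% did. The share was below that of all genes for set 2, with 8 genes or 8.33% against 12.8%, and for the siRNA sets averaged, with 10 genes or 10.4% against 12.1%. Between plasmid and siRNA arrays it was 15 genes, or 15.6%, against 13.3% of all genes.

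The channel genes as a whole moved little in level. Their median log2 difference was 0.01 for the siRNA sets averaged, 0.02 for set 1, -0.05 for set 2 and 0.01 for the plasmid against control siRNAs, and -0.02 for the plasmid against the siRNA sets. Over all genes tested the same medians were -0.01, -0.01, 0.00, 0.00 and 0.01. Of the 96 genes, 49 were above and 47 below the control mean under the siRNA sets averaged, and the same numbers held under the plasmid. The comparisons with control siRNAs share the same 3 control arrays, and the plasmid and siRNA arrays are shared in the same way with the last comparison. Complete separation of the groups was seen for 4 of 96 channel genes under the siRNA sets averaged (5.32% of all genes), 15 under set 1 (14.7%), 10 under set 2 (18%), 10 under the plasmid (7.55%) and 9 between the plasmid and the siRNA sets (7.12%).

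**Figure D1:**
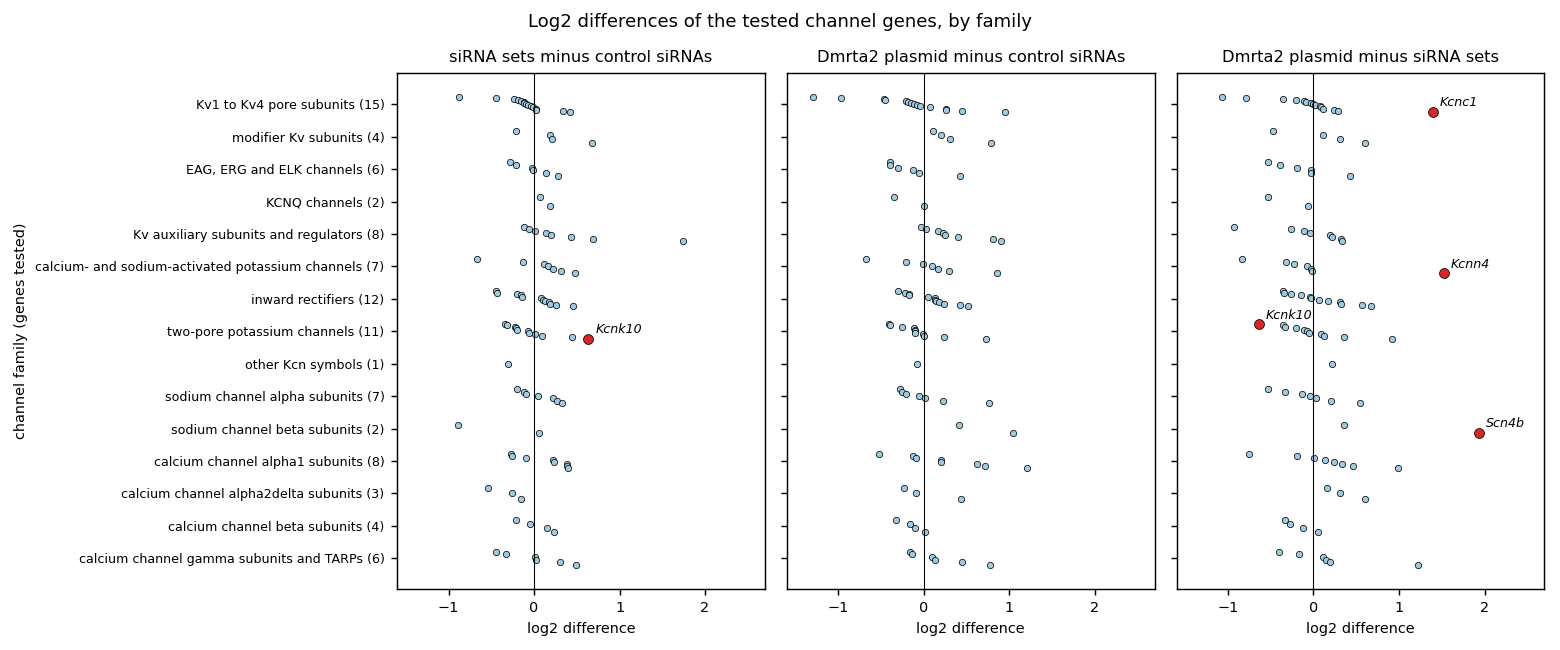
Log2 differences (x axis) of the 96 tested channel genes by family (y axis, with the number of genes tested) for the siRNA sets minus control siRNAs, the Dmrta2 plasmid minus control siRNAs and the plasmid minus the siRNA sets. Each point is 1 gene and larger red points passed an adjusted p under 0.05: Kcnk10 on the left, none in the middle, and Scn4b, Kcnn4, Kcnc1 and Kcnk10 on the right.

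Sodium channels were represented by 7 alpha subunit genes, which form the pore, and by 2 beta subunit genes, whose products alter gating and act in cell adhesion. Scn4b encodes the beta4 subunit, known for its part in resurgent sodium current. Its level under control siRNAs was -4.45, -4.17 and -3.70 on slides 1, 2 and 3. It was -4.57, -5.38 and -4.85 under set 1 and -4.84, -5.29 and -5.04 under set 2. Under the Dmrta2 plasmid it was -3.18, -3.31 and -2.69. All 3 plasmid arrays thus lay above all controls, and all 6 siRNA arrays lay below them. The plasmid and siRNA arrays differed 3.83-fold, a log2 difference of 1.94 ± 0.22 (SE, n = 3 against 6; limma adjusted p = 0.00191).

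The Scn4b difference between plasmid and siRNA arrays was 1.53, 2.03 and 2.26 within slides 1, 2 and 3, and a fit blocked by slide gave an adjusted p of 0.00164. Against control siRNAs neither arm passed: the siRNA sets averaged gave -0.89 ± 0.22 (adjusted p = 0.118) and the plasmid 1.05 ± 0.26 (adjusted p = 0.247). Within slide 1 the siRNA difference was small, at -0.26, against -1.16 and -1.25 on the other slides. Scn4b was the single gene of the 96 that lay without overlap on opposite sides of the controls under siRNAs and plasmid. The call held on leaving out any 1 of the 12 arrays (adjusted p from 0.00189 to 0.0163). With normexp background correction, which draws dim signals together, the difference was 0.87 and still passed (adjusted p = 0.0292).

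The other beta subunit gene, Scn2b, differed by 0.35 between plasmid and siRNA arrays and did not pass. Among the alpha subunit genes, the brain types Scn1a, Scn2a, Scn3a and Scn8a ranged from -0.19 for Scn8a to 0.32 for Scn1a under the siRNA sets averaged. Another Scn8a probe gave 0.34, and other Scn2a probes gave 0.43 and 0.40 where the probe used gave -0.12, so the probes disagree in sign. Second probes of Scn1a and Scn3a kept the sign, at 0.14 and 0.15. None of the 7 alpha subunit genes passed in any comparison without a block. Scn11a, better known from sensory neurons, differed by 0.54 between plasmid and siRNA arrays and passed with the slide as a block only, at 0.61 in that fit, which differs because it has missing spots.

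The calcium- and sodium-activated potassium channel genes numbered 7. Kcnn4 encodes the intermediate-conductance calcium-activated channel, known best from blood cells and epithelia. Its level was -5.45, -5.79 and -5.37 under control siRNAs. Under set 1 it was -6.89, -5.98 and -6.33, with 1 of these 3 arrays well above background, and under set 2 it was -6.24, -5.56 and -6.25. Under the plasmid it was -4.80, -4.64 and -4.61. The plasmid arrays were the 3 highest of all 12 and close to one another.

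The plasmid and siRNA arrays differed 2.88-fold for Kcnn4, or 1.52 ± 0.21 on the log2 scale (limma adjusted p = 0.00543, and 0.00681 blocked by slide). Within slides the difference was 1.77, 1.13 and 1.67. With arrays not well above background set to their floor it was 1.43. Against control siRNAs, Kcnn4 differed by 0.86 ± 0.25 under the plasmid (adjusted p = 0.391) and by -0.67 ± 0.21 under the siRNA sets averaged (adjusted p = 0.22). The call held without any 1 array (adjusted p from 0.00344 to 0.0392), but normexp background correction left a difference of 0.47 and no call (adjusted p = 0.22).

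Kcnt2, which encodes a sodium-activated channel, lay on the other side of the threshold. Its level was -5.56, -5.36 and -6.05 under control siRNAs and -6.36, -6.26 and -6.39 under the plasmid, below all controls. Against the siRNA sets the plasmid arrays were lower by 0.83 ± 0.19 on the log2 scale, with no overlap, and the adjusted p was 0.0503. Normexp background correction turned this value to 0.04. The large-conductance channel gene Kcnma1, also opened by calcium, differed by 0.12 under the siRNA sets averaged and by -0.03 between plasmid and siRNA arrays, and the small-conductance gene Kcnn3 by -0.13 and -0.07. Kcnmb4, whose product is a beta subunit of the large-conductance channel, was 0.33, 0.64 and 0.32 under control siRNAs and 0.69, 1.28 and 1.21 under set 1, without overlap. It differed by 0.63 ± 0.18 under set 1 (adjusted p = 0.213) and by 0.48 ± 0.15 under the siRNA sets averaged (adjusted p = 0.211).

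The pore-forming subunits of the Kv1 to Kv4 families, the classic delayed rectifiers and A-type channels, were represented by 15 genes. Kcnc1 encodes a Kv3 subunit, whose channels close fast and allow high firing rates in some adult neurons. Its level was -2.01, -1.26 and -2.40 under control siRNAs. It was -1.85, -2.12 and -2.34 under set 1 and -2.14, -3.05 and -2.51 under set 2. Under the plasmid it was -0.76, -1.25 and -0.81. Control replicate 2 came within 0.01 of the lowest plasmid array, and the plasmid arrays were still the 3 highest.

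Between plasmid and siRNA arrays, Kcnc1 differed 2.63-fold, or 1.39 ± 0.26 on the log2 scale (limma adjusted p = 0.0239, and 0.0311 blocked by slide), and by 1.24, 1.33 and 1.61 within slides. The other 2 probes of Kcnc1 gave 1.44 and 1.66. The call was lost on leaving out plasmid replicate 1 (adjusted p = 0.112), 2 (0.0647) or 3 (0.126), set 1 replicate 3 (0.0642) or set 2 replicate 3 (0.0547), while the difference stayed between 1.27 and 1.55 over all 12 such fits. Against control siRNAs the plasmid gave 0.95 ± 0.31 (adjusted p = 0.538), with 1.25, 0.01 and 1.59 within slides.

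Kcnc2 is the gene of another Kv3 subunit. It was well above background on 2 of 3 control arrays and on none of the plasmid arrays. Its measured means were -5.85 and -7.14, and with the plasmid arrays at their floor the control mean was 1.54-fold higher (adjusted p = 0.608). That control mean includes an array not well above background, so the fold is not a strict bound. Over the alternative ways of processing the log2 difference from control ran from -1.37 to -0.04. Kcnc4, of the same family, differed by -0.35 between plasmid and siRNA arrays.

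Kcna5 encodes a Kv1 subunit known from heart and microglia. Its level was -1.92, -3.42 and -2.07 under control siRNAs, -2.89, -4.20 and -2.72 under set 1, -3.08, -4.09 and -3.14 under set 2, and -2.88, -4.08 and -3.35 under the plasmid. On every slide the control array was the highest of the 4, while slide 2 was low in all groups, so that the groups overlapped. The siRNA sets averaged differed from control by -0.88 ± 0.45 (adjusted p = 0.486) and by -1.07, -0.72 and -0.86 within slides. Blocked by slide, the adjusted p was 0.027 for both sets averaged and 0.0281 for set 2 alone. A second Kcna5 probe, well above background on 3 arrays, gave 0.27 for the siRNA sets and 1.90 for the plasmid, so the probes disagree in sign.

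Among the remaining Kv1 to Kv4 genes, Kcna1 varied widely without a call. Its level ran from -4.40 to -2.61 over the control arrays, from -4.55 to -4.06 over set 1, from -4.11 to -2.50 over set 2 and from -4.38 to -3.35 over the plasmid arrays. Kcnb2, a delayed rectifier gene, differed by -0.79 ± 0.33 between plasmid and siRNA arrays (adjusted p = 0.318), with -0.87, -0.97 and -0.53 within slides. The A-type genes Kcnd1, Kcnd2 and Kcnd3 stayed between -0.12 and 0.03 under the siRNA sets averaged and between -0.21 and 0.29 for plasmid against siRNA.

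**Figure D2:**
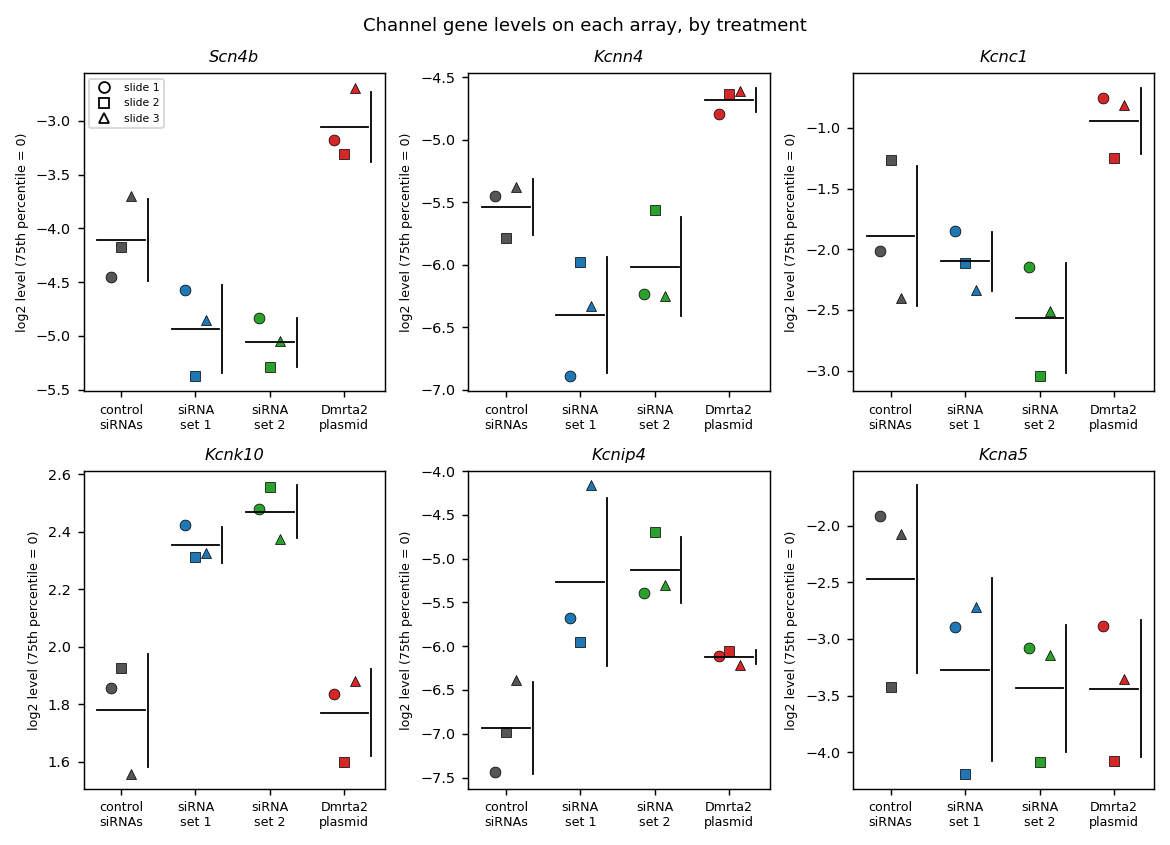
Log2 level (y axis, 75th percentile of the array at 0) of Scn4b, Kcnn4, Kcnc1, Kcnk10, Kcnip4 and Kcna5 on each array, by treatment (x axis). Points are arrays with their slide as the shape, horizontal lines are group means and vertical lines 1 SD each way. Scn4b, Kcnn4 and Kcnc1 are highest under the plasmid, and the 6 siRNA arrays of Kcnk10 lie above all other arrays. Kcnip4 did not rise well above background on any control array.

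The leak potassium channels with a pair of pore domains, which hold the resting potential, counted 11 tested genes. Kcnk10 encodes TREK-2, a leak channel sensitive to stretch, temperature and lipids. Its level was 1.86, 1.93 and 1.56 under control siRNAs and 1.83, 1.60 and 1.88 under the plasmid. It was 2.42, 2.31 and 2.33 under set 1 and 2.48, 2.56 and 2.38 under set 2. All 6 siRNA arrays lay above all 6 others, and the control and plasmid arrays overlapped.

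Kcnk10 rose 1.55-fold under the siRNA sets averaged, by 0.63 ± 0.11 (n = 6 against 3; limma adjusted p = 0.0368, and 0.0335 blocked by slide). It was higher on every slide, by 0.60, 0.51 and 0.79. Set 2 alone gave 0.69 ± 0.13 (adjusted p = 0.0381) and set 1 alone 0.57 ± 0.13 (adjusted p = 0.107), and the sets differed from each other by 0.12 ± 0.13 (adjusted p = 0.873). The plasmid arrays differed from control by -0.01 ± 0.13 and from the siRNA sets by -0.64 ± 0.11 (adjusted p = 0.015), with -0.62, -0.84 and -0.47 within slides. The differences are small in size beside a small spread: the SD within groups was 0.135 for Kcnk10, against a median of 0.397 over the channel genes.

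The calls of Kcnk10 differ in how they bear the loss of an array. The rise under the siRNA sets averaged kept its size, from 0.52 to 0.71, but passed in 1 of 12 fits with an array left out, the fit without plasmid replicate 2, and its adjusted p reached 0.158 without control replicate 3. The rise under set 2 alone passed in 2 of 12 such fits (adjusted p up to 0.125). Neither rise passed without the filter on dim probes or with only the compared groups in the fit. The difference between plasmid and siRNA arrays passed in 9 of 12 such fits and was lost without plasmid replicate 1 (adjusted p = 0.0556), 2 (0.0884) or 3 (0.0548).

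Kcnk1 encodes TWIK-1, a weak inward-rectifying leak channel. Its level was -5.78, -5.11 and -5.22 under control siRNAs, and -5.28, -3.84 and -4.82 under the plasmid. It was -4.45, -4.76 and -4.70 under set 1 and -6.72, -6.18 and -6.59 under set 2, with 1 of 3 set 2 arrays well above background. Set 1 lay above all controls and set 2 below all of them. The gap between the sets was the largest fall among the 96 genes from set 1 to set 2, at -1.86 ± 0.33 (adjusted p = 0.071, and 0.0497 blocked by slide). Within slides it was -2.28, -1.43 and -1.89. Over the alternative ways of processing it ran from -1.87 to -0.28 (limma adjusted p from 0.0497 to 0.839). Kcnk2, the gene of the related TREK-1 channel, differed by 0.45 under the siRNA sets averaged, and Kcnk9, the gene of an acid-sensitive leak channel, by -0.41 under the plasmid with no overlap; neither passed.

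Auxiliary subunits and regulators of Kv channels counted 8 genes. Kcnip4 encodes a calcium-binding KChIP protein that binds A-type channels. The 3 control arrays did not hold it well above background and all 9 others did, the single channel gene to switch in this way. Its signal was -7.44, -6.98 and -6.39 on the control arrays, -5.68, -5.95 and -4.16 under set 1, -5.40, -4.70 and -5.30 under set 2, and -6.11, -6.05 and -6.21 under the plasmid. All treated arrays lay above all controls, and the plasmid arrays lay below all siRNA arrays.

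Against the background floor of the control arrays, the siRNA sets were at least 2.16-fold higher for Kcnip4 (measured means -5.20 and -6.93; adjusted p = 0.0733, and 0.052 blocked by slide), and the plasmid at least 1.14-fold higher (adjusted p = 1). This was the largest measured log2 difference of the 96 genes under the siRNA sets, at 1.74 ± 0.37, and it passed in no comparison. Within slides it was 1.90, 1.65 and 1.65. Set 2 alone against control passed without set 1 replicate 3 (adjusted p = 0.0428) and in no other of 12 such fits. Normexp background correction left 0.23.

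Kcnip1, a KChIP gene used as a marker of some interneurons, differed by 0.63 ± 0.48 under set 2 and by -0.23 ± 0.48 under set 1. Kcnab1, a Kv beta subunit gene, cannot be compared with control here. A single control array had a usable spot, at -3.48 on slide 2, where the other 3 arrays read -3.99, -3.58 and -4.01, and its computed difference of 0.68 under the siRNA sets changed sign with the slide as a block. The accessory gene Kcne1l was 1.51, 1.83 and 1.65 under control siRNAs and 1.87, 2.61 and 2.60 under set 1, without overlap, at 0.69 ± 0.20 (adjusted p = 0.242). Under the siRNA sets averaged it differed by 0.43 ± 0.18 (adjusted p = 0.363), and Kcne3 and Kcnip3 by 0.01 and -0.11.

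Modifier subunits, which form no channel alone and change Kv2 channels, were measured for 4 genes, Kcnf1, Kcng1, Kcns3 and Kcnv1, and ether-a-go-go type channels for 6. None passed, and the largest gaps lay between the siRNA sets. Kcns3 was -3.45, -3.72 and -2.83 under set 1 and -5.10, -4.41 and -5.36 under set 2, with the controls between -5.09 and -4.63. Set 1 lay above all controls and set 2 overlapped them, with a difference of -1.62 ± 0.40 from set 1 to set 2 (adjusted p = 0.165). Kcng1 was -1.18, -0.91 and -1.30 under set 1 and -2.32, -3.23 and -2.56 under set 2, a difference of -1.57 ± 0.36 (adjusted p = 0.143).

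Kcnh8, an ELK channel gene, differed by -1.26 ± 0.35 from set 1 to set 2 (adjusted p = 0.24), and 1 of 3 set 2 arrays was well above background. Kcnv1, the gene of a silent subunit, went the other way, at 1.37 ± 0.43 (adjusted p = 0.294), with set 2 above set 1 on every slide. The T-type calcium channel gene Cacna1g was 0.25, 0.83 and 0.60 under set 1 and -0.54, -0.26 and -0.46 under set 2, a difference of -0.98 ± 0.26 (adjusted p = 0.222). In each of these genes the sets did not overlap. Over the alternative ways of processing, Kcnh8 ran from -1.26 to -0.16 and Kcnv1 from 0.35 to 1.43. Kcns3 ran from -1.63 to -0.57 and Kcng1 from -1.58 to -1.19.

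In all, 0 of 96 channel genes passed between set 2 and set 1 (0.0781% of all genes), 14 had an unadjusted p under 0.05, or 14.6%, where 9.77% of all genes did, and the sets did not overlap for 15 genes, where 14% of all genes did. Of those 15, 12 were lower under set 2. Over all genes, 966 of the 2145 that did not overlap were lower, or 6.29% of the genes tested. Both sets target the same 2 genes, and Dmrt3 stood at 49.4% of control under set 1 and 57.6% under set 2, and Dmrta2 at 65.3% and 80.6%.

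**Figure D3:**
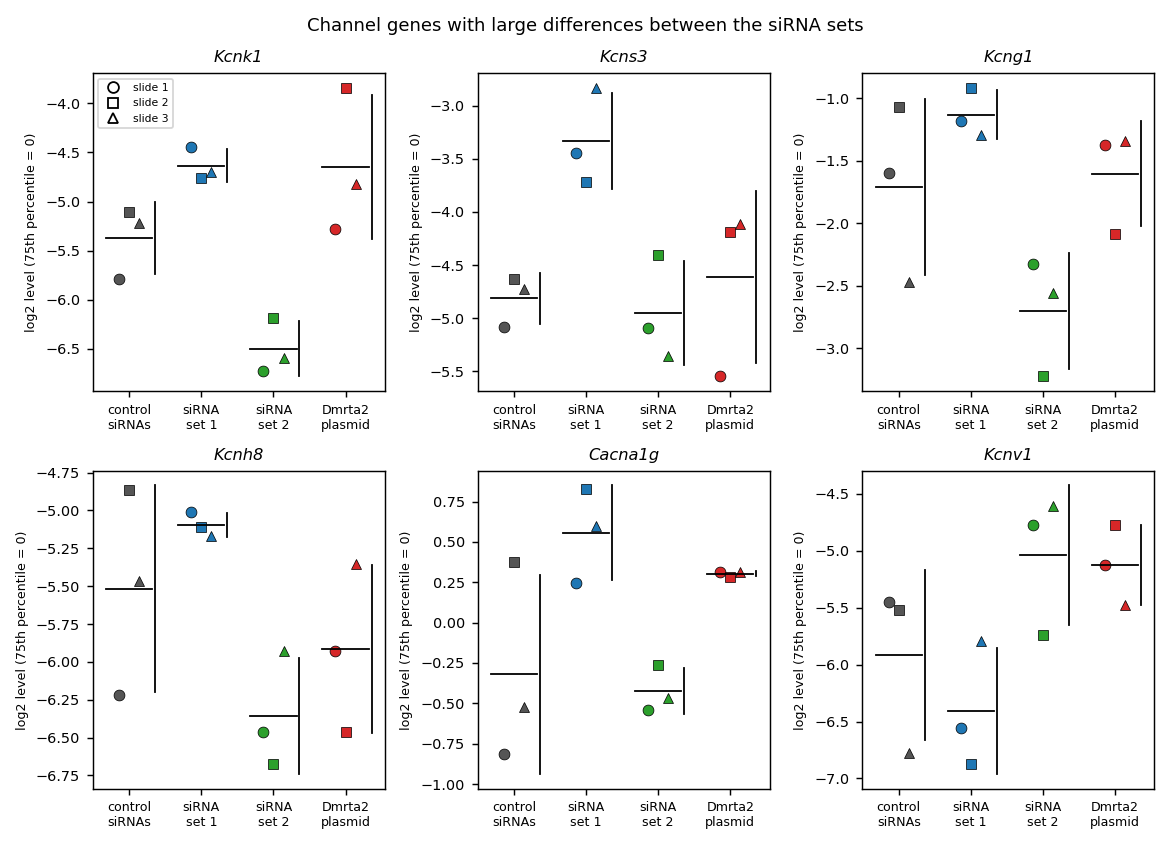
Log2 level (y axis, 75th percentile of the array at 0) of Kcnk1, Kcns3, Kcng1, Kcnh8, Cacna1g and Kcnv1 on each array, by treatment (x axis). Points are arrays with their slide as the shape, horizontal lines are group means and vertical lines 1 SD each way. The arrays of set 2 lie below those of set 1 for the first 5 genes and above them for Kcnv1, and no gene passed the test between the sets.

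Inward rectifiers, which pass potassium more readily inward than outward, counted 12 tested genes, and KCNQ channels, the source of the M-current, counted 2. None passed in any comparison. Under the siRNA sets averaged the inward rectifiers ran from -0.44 for Kcnj10, the glial Kir channel gene, to 0.26 for Kcnj14. This leaves out Kcnj12, which no control array held well above background and for which no fold can be given. Kcnj9, a G-protein-gated channel gene, was -4.37, -4.61 and -4.18 under set 2 and -4.95, -4.76 and -4.74 under control siRNAs, without overlap, at 0.43 ± 0.38 (adjusted p = 0.724). Kcnj4 differed by 0.67 between plasmid and siRNA arrays without overlap and did not pass. Kcnq3 differed by 0.18 under the siRNA sets averaged and by -0.53 for plasmid against siRNA.

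Calcium channel genes were measured for 8 pore-forming alpha1, 3 alpha2delta, 4 beta and 6 gamma subunits, and none passed in any comparison. Cacna1c and Cacna1d encode the L-type pores of the brain. Cacna1c was -6.96, -6.16 and -6.68 under control siRNAs, with 1 of 3 arrays well above background, and -5.98, -5.91 and -4.29 under the plasmid, with all 3. The plasmid arrays lay above all controls, and the measured difference was 1.21 ± 0.43 (adjusted p = 0.719), or 0.78 with arrays not well above background set to their floor. It was 2.39 within slide 3, against 0.98 and 0.25 within slides 1 and 2. Cacna1d was well above background on 1 control array and on none under the plasmid, with measured means of -6.20 and -6.72 (adjusted p = 1). Its signal ran from -6.49 to -5.86 over the control arrays and from -7.39 to -6.36 over the plasmid arrays. The groups thus overlapped, and no minimum fold is given.

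Cacna2d1, whose product brings calcium channels to the surface, differed by -0.54 ± 0.24 under the siRNA sets averaged (adjusted p = 0.412), with -0.14, -1.37 and -0.12 within slides, so that slide 2 held most of it. The means of all 3 alpha2delta genes lay below control under the siRNA sets, as did those of 7857 of all 15369 genes. Cacna2d4 did so without overlap, at -0.26. Cacna2d3 differed by -0.16, with 0.40, -0.91 and 0.05 within slides, so that only slide 2 was lower. The beta subunit genes stayed between -0.21 and 0.23. The gamma subunit list contains the TARPs, which traffic glutamate receptors. Of these, Cacng5 was -4.83, -4.43 and -4.59 under control siRNAs, -5.41, -4.22 and -4.57 under set 1, -5.14, -6.21 and -4.85 under set 2 and -3.61, -4.10 and -3.81 under the plasmid. Its plasmid arrays were the 3 highest, at 1.23 ± 0.32 above the siRNA sets (adjusted p = 0.0877), and it passed with normexp background correction. Cacng8 differed by 0.78 ± 0.23 under set 1 (adjusted p = 0.238) and by 0.22 ± 0.23 under set 2.

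How much the channel genes varied among replicates bears on these counts. The median SD within groups was 0.397 for the channel genes and 0.242 for the other genes, on the log2 scale. The treatment took up a median share of 0.284 of the variance of a channel gene and 0.286 of another gene, and the slide 0.137 and 0.262. These shares are not corrected for the number of groups. Over 12 arrays a factor without effect also takes up a share, and a larger one for 4 treatments than for 3 slides. The shares therefore do not show an effect of treatment and do not rank treatment against slide. Of the 96 genes, 79 were well above background on all 12 arrays and 17 on 3 to 11 of them. Just inside the limit were Kcnj12, measured on 3 arrays, and Cacna1e, on 4, and just outside were Kcnk6, Kcnmb2, Kcnn1, Kcnq5 and Kcns2, on 2 each. A further 7 genes were well above background on 1 array, among them Kcna2 and Kcnab2, and 20 on none, among them the N-type calcium channel gene Cacna1b. These 32 genes were not tested in the main fit.

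On slide 2 the median channel gene lay below the control array in all 3 treated groups. These groups share the same control array there, so their differences are not independent. Against the control array of the same slide, the median channel gene differed by 0.08, -0.21 and 0.03 under set 2 on slides 1, 2 and 3, by -0.05, -0.15 and 0.23 under set 1, and by 0.13, -0.27 and 0.21 under the plasmid. Over all genes tested these medians stayed between -0.03 and 0.03. The postmitotic neuron list (20 genes, among them Tubb3, Dcx and Stmn2) was also lowest on slide 2: its median under the siRNA sets averaged was 0.29, -0.61 and 0.67 on slides 1, 2 and 3. None of its genes passed in any of the 6 comparisons (limma). In each, 0 to 2 had an unadjusted p under 0.05, where 4.44% to 13.3% of all genes did. Its mean level over the 3 control arrays ran from 1.28 to 1.97, and all 20 genes were well above background on every array. Its part in the channel values was not tested.

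**Figure D4:**
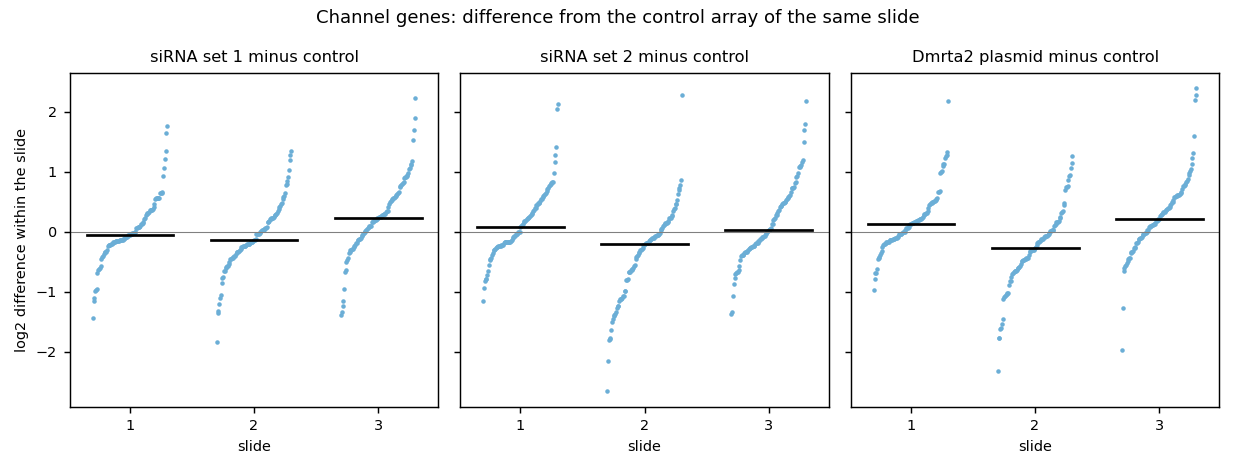
Log2 difference (y axis) of each tested channel gene from the control array of the same slide, for siRNA set 1, siRNA set 2 and the Dmrta2 plasmid, by slide (x axis). Each point is 1 gene, ordered by value within the slide, and the black line is the median. The medians lie below 0 on slide 2 in all 3 panels, from -0.27 to -0.15. The panels share the control array of each slide.

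Markers of other cells moved with the treatments in part. Of 11 tested genes of microglia and macrophages, 4 were higher than control under the siRNA sets averaged (Cx3cr1, Aif1, Tyrobp and C1qa, by 1.13 to 1.79), where 0.67% of all genes passed. It was 6 under set 2 (1.02% of all genes) and 4 under the plasmid (0.273%). None passed under set 1 (0.234% of all genes), where the lowest limma adjusted p was 0.15, for Tyrobp. Between plasmid and siRNA arrays 0 passed (2.15% of all genes), with a median of 0.23. Under the siRNA sets averaged, C1qc, Trem2, Fcer1g, C1qb and Ptprc differed by 1.34, 1.32, 0.63, 0.50 and 0.25 and did not pass. Itgam and Csf1r lay below control, by -0.05 and -0.11. The mean level of that list ran from -3.50 to -2.77 over the control arrays, -2.73 to -2.40 under set 1, -2.23 to -1.84 under set 2 and -2.28 to -1.92 under the plasmid. Of 8 tested genes of surface ectoderm, 2 keratin genes were higher under the plasmid than under the siRNAs, where 2.15% of all genes passed in either direction. Krt8 differed by 3.56 ± 0.32 and passed also against control, and Krt18 differed by 1.56 ± 0.25. The others did not pass: Grhl2 differed by 1.23, Epcam by 0.71, Trp63 by 0.05, Krt5 by -0.01, Esrp1 by -0.14 and Krt14 by -0.38. The list's mean level ran from -3.73 to -3.47 under the plasmid and from -4.72 to -3.99 elsewhere. The plasmid arrays had all 8 of these genes well above background and the other arrays 5 to 7. Whether other cells had a part in the levels of Kcnn4, Scn4b, Kcnk10 or Kcna5 was not tested.

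Of the lists for endothelium (7 genes tested), erythroid cells (9) and mesenchyme (6), no gene passed in any comparison (limma). From 0 to 3 of a list had an unadjusted p under 0.05, where 4.44% to 13.3% of all genes did. The mean level of the erythroid list nevertheless ran from -2.71 to -2.24 over the control arrays and from -1.78 to -0.93 under the plasmid, without overlap. It ran from -2.75 to -0.45 under set 1 and from -2.01 to -1.26 under set 2. Under the plasmid, 6 of its 9 genes lay above all controls, by 0.90 for Hbb-bh1 to 2.22 for Hba-x. Of all genes, 7.55% lay apart from the controls there in either direction. Between plasmid and siRNA arrays the median of the list was 0.27 with no such separation. The part of blood cells in the level of Kcnn4 was not tested. The mesenchyme list ran from -4.34 to -3.91 over the control arrays and from -3.42 to -1.35 under set 1, also without overlap. It ran from -4.39 to -3.34 under set 2 and from -4.10 to -2.76 under the plasmid. Under set 1, Col3a1, Dcn and Pdgfrb lay above all controls, by 2.68, 1.14 and 0.86, and the other genes of that list overlapped them. Under set 1, 14.7% of all genes lay apart from the controls in either direction. The part of mesenchyme in the channel values was not tested. The 6 telencephalon markers, among them Emx1, Emx2, Lhx2 and Otx1, were well above background on every array and none passed. Of 14 neural progenitor genes, 3 were lower under the plasmid than under the siRNAs, where 2.15% of all genes passed in either direction. They were Pax6 at -1.52, Slc1a3 at -0.82 and Vim at -0.58, and no gene of the list passed in the other comparisons. The rest of the list ran from -0.22 for Fabp7 to 0.43 for Hes1, most of it above 0. Against control siRNAs, Pax6, Slc1a3 and Vim differed by 1.06, 0.82 and 0.39 under the siRNA sets averaged, without overlap. Under the plasmid they differed from control by -0.46, 0.001 and -0.19. Proteins and channels that work with the channel genes, such as HCN pacemaker channels, the NALCN leak channel complex, ankyrins and the Dpp partners of A-type channels, were listed as 30 genes, of which 26 were tested and 0 passed in any of 6 comparisons. At an unadjusted p under 0.05, 1 of the 26 was found for the siRNA sets averaged (12.1% of all genes) and 1 between the sets (9.77%). It was 3 for the plasmid against the siRNA sets (13.3%). Against control siRNAs it was 0 for set 1 (10%), set 2 (12.8%) and the plasmid (4.44%).

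The stretches of genome just before the starts of the 4 called genes are shown so that their base composition and short motifs can be read beside the values. They come from RefSeq on GRCm38.p6, hold the 250 bases before an annotated start, and are written 5′ to 3′ on the strand of the gene. Capitals mark CANNTG, the core bound by basic helix-loop-helix factors, which include the neurogenic ones; lower case throughout means no match.

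Scn4b, chr9:45138374-45138623, plus strand: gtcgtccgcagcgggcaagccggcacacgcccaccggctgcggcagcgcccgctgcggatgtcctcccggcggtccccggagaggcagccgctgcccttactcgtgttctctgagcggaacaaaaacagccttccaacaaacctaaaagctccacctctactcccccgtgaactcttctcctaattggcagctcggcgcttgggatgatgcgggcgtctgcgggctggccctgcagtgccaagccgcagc
Kcnn4, chr7:24370013-24370262, plus strand: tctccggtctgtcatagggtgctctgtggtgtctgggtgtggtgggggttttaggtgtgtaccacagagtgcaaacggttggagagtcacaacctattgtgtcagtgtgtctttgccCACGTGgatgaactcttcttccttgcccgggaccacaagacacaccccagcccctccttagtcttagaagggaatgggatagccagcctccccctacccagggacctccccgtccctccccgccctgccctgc
Kcnc1, chr7:46396218-46396467, plus strand: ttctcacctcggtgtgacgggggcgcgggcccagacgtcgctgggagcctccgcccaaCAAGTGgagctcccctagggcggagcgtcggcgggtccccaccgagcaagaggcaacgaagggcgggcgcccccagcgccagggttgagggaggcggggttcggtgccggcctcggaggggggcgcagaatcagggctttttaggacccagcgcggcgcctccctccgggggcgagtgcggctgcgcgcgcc
Kcnk10, upstream start, chr12:98578214-98578463, minus strand: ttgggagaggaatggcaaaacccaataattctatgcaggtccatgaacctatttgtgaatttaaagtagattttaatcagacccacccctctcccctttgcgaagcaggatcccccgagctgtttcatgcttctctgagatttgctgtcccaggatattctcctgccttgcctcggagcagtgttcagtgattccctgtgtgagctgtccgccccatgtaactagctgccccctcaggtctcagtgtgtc
Kcnk10, downstream start, chr12:98575128-98575377, minus strand: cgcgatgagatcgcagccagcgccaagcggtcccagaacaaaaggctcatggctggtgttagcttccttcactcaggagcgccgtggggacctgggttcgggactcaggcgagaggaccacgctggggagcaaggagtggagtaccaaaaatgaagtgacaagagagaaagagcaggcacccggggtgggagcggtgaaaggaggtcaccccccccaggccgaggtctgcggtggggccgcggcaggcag

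The 3 genes that were higher under the plasmid do not share a motif among those searched. Kcnn4 and Kcnc1 each held 1 CANNTG, 133 and 192 bases before the start, and Scn4b and both Kcnk10 windows held none. ACANTGT, the core of the sequence bound by DM-domain proteins, was in none of the 5 windows. Both motifs read the same on either strand, and neither contains the other. In the table, 72 of the 96 tested channel genes were matched, with 100 windows. ACANTGT was in 5.0% of these windows, those of Kcnab1, Kcnk16, Kcnn3, Kcnq1ot1 and Kcnrg, and in 6.47% of all 32851 windows of the same length. CANNTG was in 69.0% of channel windows and 66.2% of all windows. G and C bases made up a median of 58.6% of the channel windows and 52.4% of all windows, and 74.4% for Kcnc1, 66.0% for Scn4b, 58.8% for Kcnn4, 64.0% for the downstream and 50% for the upstream start of Kcnk10. These matches describe the letters in the windows and show no binding.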

How the data were processed

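Each of 12 samples was hybridised to a one-colour Agilent mouse array, after labelling of 0.1 ug of total RNA, per the labels' protocols. The deposited spot intensity, background-subtracted within the array per the file headers, was the signal processed by Agilent Feature Extraction 10.5.1.1 (version per the submitters' processing notes). Control spots and outlier-marked spots were removed (136 to 218 on an array of 43020), no spot was saturated, and the 75th percentile of all non-control spots was subtracted on the log2 scale. Probes were named through their RefSeq accession in a table of assembly GRCm38.p6, while the files' annotation used mm9, so gene coordinates are not given; 26055 of 39429 probes were named. Certain genes are not reported here. The authors' deposited log2 values, whose scale and centring no label states, followed the scanner values at a correlation above 0.999 on every array, in the same direction, and served as an alternative.

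Differences were fitted with limma 3.58.1 in R 4.3.3 (lmFit and eBayes) over all 15369 genes and 4 group means at 8 residual degrees of freedom, with Benjamini-Hochberg adjustment over all genes and two-sided tests; standard errors are the moderated ones of that fit. Where no array of a group held a probe well above background, its level there is a bound: each such array was given the lowest well-above-background signal on it, or the probe's signal if that was higher, and the other group's mean was set against their mean. Floors elsewhere follow the same rule. In a bound, the other group's mean kept the measured signal of its arrays not well above background, as for Kcnc2. Genes named are those called in any of 6 comparisons, the 4 highest and 4 lowest differences in each, those detected on all arrays of one group and none of another, and family members given by value. The script was tested on simulated data. Members and lists were chosen with earlier results of these data known. Alternatives were quantile normalization, normexp with an offset of 50, the deposited table, other filters on dim probes, the mean of a gene's probes, the slide as a block, only the groups compared, and each array left out. The number of arrays limits the precision.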

Additional observations from a re-analysis of the deposited data

Results flagged for a closer look

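For 4 channel genes the response to the Dmrta2 plasmid differed from the response to the siRNA sets by the test of that difference itself, the comparison of the plasmid arrays with both siRNA sets averaged (limma, adjusted p under 0.05). The log2 difference was 1.94 for Scn4b, 1.52 for Kcnn4, 1.39 for Kcnc1 and -0.64 for Kcnk10. The plasmid and siRNA arrays did not overlap for any of these 4 genes, and each difference had the same sign on all 3 slides. For Scn4b the controls lay between the arms, for Kcnk10 they overlapped the plasmid arrays, and for Kcnn4 and Kcnc1 they lay below the plasmid arrays and overlapped siRNA arrays. Groups of 3 arrays are too small for a search for single outlying arrays.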

How the results depend on the processing

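The counts of called channel genes (1 for the siRNA sets averaged, 0 for set 1, 1 for set 2, 0 for the plasmid, 0 between the sets and 4 for plasmid against siRNA) held under quantile normalization, the deposited table and the mean of a gene's probes with the same genes called. With the slide as a replicate block they were 2, 0, 2, 0, 1 and 5, adding Kcna5 under the siRNA sets averaged and set 2, Kcnk1 between the sets and Scn11a for plasmid against siRNA. Arrays of the same slide deviated together with correlations from 0.334 to 0.466 on slide 1, 0.134 to 0.599 on slide 2 and 0.0196 to 0.255 on slide 3. Without a filter on dim probes (128 channel genes), and with only the groups compared in the fit, the counts for the siRNA sets averaged and for set 2 were 0; plasmid against siRNA kept the same 4 genes. With probes well above background on all 12 arrays that count was 3, since Kcnn4 was not tested. Normexp background correction kept 4, with Cacng5 in place of Kcnn4. Leaving out 1 array gave 0 to 1 calls for the siRNA sets averaged, set 1, set 2 and set 2 against set 1 (Cacna1g under set 1 without control replicate 2, Kcnk1 between the sets without plasmid replicate 2), 0 for the plasmid, and 2 to 5 for plasmid against siRNA. Over all genes the counts moved more, from 103 to 233 with the block and to 37 without a filter for the siRNA sets averaged, and from 330 to 527 and 246 for plasmid against siRNA. Leaving out 1 array gave 17 to 87 calls over all genes for the siRNA sets averaged, 4 to 83 for set 1 (36 with all arrays), 10 to 143 for set 2 (157), 18 to 55 for the plasmid (42), 0 to 12 between the sets (12) and 106 to 330 for plasmid against siRNA.

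Signs turned for some named values, none of them called; the cause was not tested. With normexp, Kcnt2 was 0.0207 under the plasmid and 0.0433 against the siRNA sets, Kcnc2 0.0496 against the siRNA sets, and Scn4b 0.0419 between the sets. Kcnab1, with 1 usable control array, was -0.95, -0.64 and -1.34 in the deposited table and -0.34, -0.0939 and -0.47 with the replicate block, for the siRNA sets averaged, set 2 and the plasmid; without control replicate 2 it could give no value. Kcna5 was 0.47 under the plasmid by the mean of its probes. On leaving out 1 array, Kcnk10 ran from -0.12 to 0.0776 under the plasmid, Kcnc1 from -0.46 to 0.11 under set 1, Scn4b from -0.35 to 0.0557 between the sets and Kcnab1 from -0.10 to 2.08 under set 2. The planned normexp on mean spot signals was not run, because the files used give median signals, which replaced them, a choice made after seeing the data. Dim genes such as Kcnip4, Kcnk1 and Kcnn4 lie close to background, which limits what their differences show.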
